A study of Mus musculus with 10 samples.

Results

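The respiratory chain subunits are the nuclear-encoded proteins of complexes I to V of the inner mitochondrial membrane, and their mRNAs were followed here in OP9 stromal cells grown as reaggregates or in flat culture. Members were all genes of the expression table whose gene symbol began as a subunit name does: Nduf with a letter of a, b, c, s or v and a number (complex I), Sdha to Sdhd (complex II), Uqcr (complex III), Cox with a number from 4 to 8 and a letter of a, b, c or i (complex IV) and Atp5 (complex V, the ATP synthase). Of 26888 genes in the table, 81 matched, and 77 of them were above 0.5 RPM (the share of a library's reads on genes, scaled to the same sum in each library) in at least 1 library, as were 16933 genes in all. The 77 comprised all 36 matched genes of complex I, 4 of complex II, 8 of complex III and 17 of complex V, and 12 of 16 of complex IV. Cox4i2, Cox6a2, Cox6b2 and Cox7b2 were the members below that level. A symbol is not always a place in a complex: Ndufa4 is now known as a subunit of complex IV, Cox7a2l as a factor that joins complexes III and IV, and Atp5s and Atp5sl carry the RefSeq names Dmac2l and Dmac2, the latter an assembly factor of complex I. Cox8b and Cox8c were not analysed here.

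OP9 is a stromal line from calvaria of (C57BL/6xC3H)F2-op/op mice (foetal by the labels, newborn by the study's text), which lack functional macrophage colony-stimulating factor, and it is used to support blood stem cells in culture. The study sequenced RNA from 6 reaggregates and 4 flat cultures to compare these growth conditions. Reaggregates were held for 48 h on nitrocellulose filters with 0.8 µm pores, where liquid meets gas; reaggregates 2, 4 and 6 also received IL-3, labelled at 200 µg/µl, and reaggregates 1, 3 and 5 did not. Flat cultures 1 to 4 were kept under medium, with no IL-3 and no culture time in their labels; flat cultures 2 and 4 are labelled as OP9 cells of the de Bruijn laboratory, and the labels name no source for the others. The study's methods place the flat-culture cells in the Medvinsky or the de Bruijn group, without saying which libraries came from which. All samples are of 1 line, so the comparison is between cultures of that line and not between animals. The labels do not say whether libraries came from separate cultures, and p-values measure the spread between these libraries only.

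Complexes I and II take electrons from NADH and succinate and pass them through coenzyme Q to complex III, which hands them by cytochrome c to complex IV, where oxygen is reduced. Complexes I, III and IV pump protons as they do so, and the ATP synthase lets the protons back to make ATP. Apart from complex II, each complex is built from subunits of nuclear and of mitochondrial genes, so that products of both genomes must meet in the same membrane.

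The libraries were not equally distant from each other. Depth was similar: 1 read was worth 0.106 to 0.136 RPM, a lower value meaning a deeper library, and the limit that 3 reads set, for counting error only, was 0.318 to 0.408 RPM. Reaggregates 1 and 2, 3 and 4, and 5 and 6 were close to duplicates: between them the typical squared difference of a gene was 1.25 to 2.27 times that of counting noise, against 5.74 to 16.5 times for the 12 other pairs of reaggregates. The 6 reaggregates may therefore hold less than 6 independent observations. Flat culture 3 lay at 11.9 to 17.9 times counting noise from the reaggregates and at 26.6, 35.1 and 41.5 times from flat cultures 1, 2 and 4, so that it was nearer to every reaggregate than to any other flat culture. The comparison of reaggregates with flat cultures was also computed with the consecutive reaggregates averaged (3 samples against 4) and without each library.

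The labelled cell type was checked against its markers. Stromal Col1a1, Col1a2, Pdgfra, Pdgfrb and Vim were abundant in all 10 libraries, Twist1 and Cxcl12 were present, Mcam was low and Thy1 stayed below 0.5 RPM. Summed RPM of the 9 stromal markers was 23346, 23196, 26326, 26646, 20495 and 19072 in reaggregates 1 to 6 and 11453, 16430, 18906 and 12154 in flat cultures 1 to 4, with Col1a2 the most abundant in every reaggregate and Vim in every flat culture. Limma called 4 of the 8 tested higher in reaggregates and none lower, beside 13.6% and 15.7% of all genes. The called genes were Col1a1 (1.93), Col1a2 (1.83), Pdgfra (1.58) and Pdgfrb (1.74, log2 fold changes). The last 2 were also called with consecutive reaggregates averaged, where 328 of all 16933 genes were called higher. The 4 not called had values below 0: Vim (-0.54), Mcam (-0.40), Cxcl12 (-0.09) and Twist1 (-0.065). In Vim every reaggregate lay below every flat culture. The part of the stromal markers in the respiratory chain result was not tested. The leukocyte genes Ptprc and Cd3e, the macrophage gene Emr1, the brown fat gene Cidea and the muscle gene Actn2 were at 0 in every library.

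In reaggregates the respiratory chain mRNAs took a smaller share of the reads than in flat culture. By limma on log2(RPM + 0.5), 43 of the 77 members (55.8%) were lower in reaggregates at an adjusted p of at most 0.05, where 15.7% of all genes tested were. None was called higher, against 13.6% of all genes, and 1 member was higher at an unadjusted p under 0.05. The median log2 fold change (reaggregate minus flat) of the members was -0.58 and that of all genes 0.04, and 71 of the 77 members had a value below 0. In 30 members every reaggregate lay below every flat culture, which held for 11.4% of all genes. At a change of at least 2-fold the called members were Ndufb8, Uqcrq and Ndufa4, against 6.53% of all genes called 2-fold lower. With consecutive reaggregates averaged the median was again -0.58, but limma called 0 of the 77 members, where it called 2.68% of all genes lower; 39 members and 2383 of all 16933 genes were lower at an unadjusted p under 0.05. The calls were thus lost when near-duplicate reaggregates were not counted as separate samples. Averaging also lowers the number of samples, and which of these removed the calls was not tested. Without flat culture 4 the calls numbered 23, where 9.63% of all genes were called lower. RPM is a share of each library, so a lower share cannot be told apart from more RNA of other genes, nor fewer cells from less of these mRNAs per cell.

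**Figure D1:**
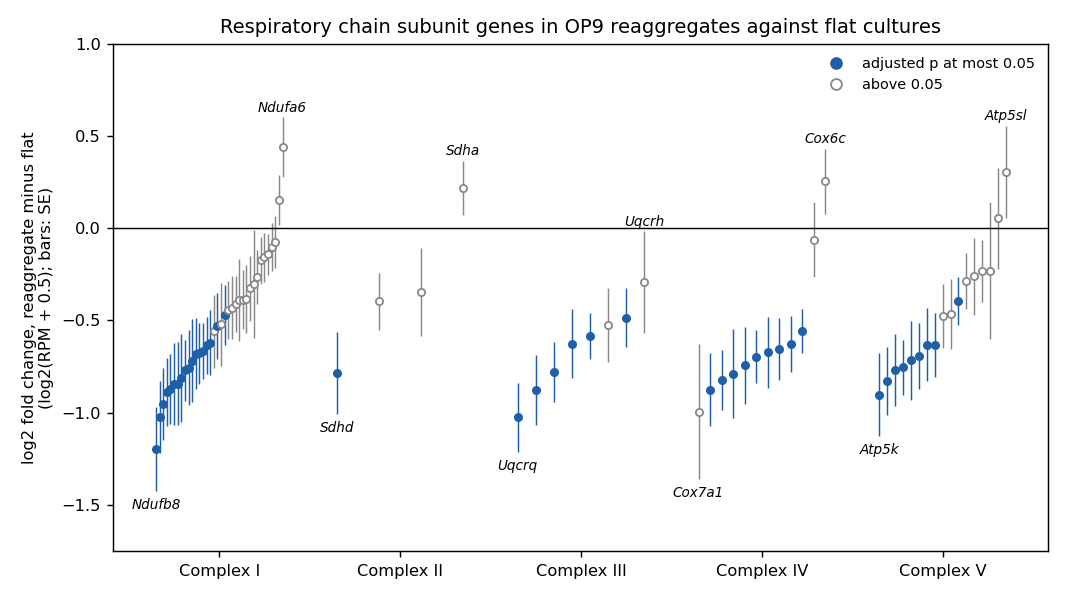
Log2 fold change of the 77 tested respiratory chain members (reaggregate minus flat, on log2(RPM + 0.5)), grouped by complex and ordered by value; points are limma estimates, bars are SE, and filled points have an adjusted p of at most 0.05. Of the members, 71 lie below 0, and the range runs from -1.20 for Ndufb8 to 0.44 for Ndufa6.

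Summed over members, the RPM of every reaggregate lay below that of every flat culture for the whole set. All 81 matched genes together gave 6280, 6292, 6319, 6498, 7342 and 7468 RPM in reaggregates 1 to 6, while flat cultures 1 to 4 gave 11898, 8931, 7567 and 10890 RPM. Flat culture 3 was just above reaggregates 5 and 6. Among the flat cultures it was the lowest in 56 of the 77 members, and flat cultures 4 and 1 were the highest in 38 and 33. Complex V, whose most abundant gene was Atp5b, summed to 2509 ± 227 RPM in reaggregates (SD, n = 6) and 3755 ± 705 RPM in flat cultures (SD, n = 4), with no overlap. The sums of the other complexes overlapped through flat culture 3: 1991 ± 140 against 2872 ± 629 RPM for complex I, 562 ± 54.8 against 888 ± 227 RPM for complex III and 1204 ± 106 against 1776 ± 408 RPM for complex IV. Complex II differed least, with 434 ± 51.2 RPM in reaggregates and 531 ± 74.5 RPM in flat cultures.

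**Figure D2:**
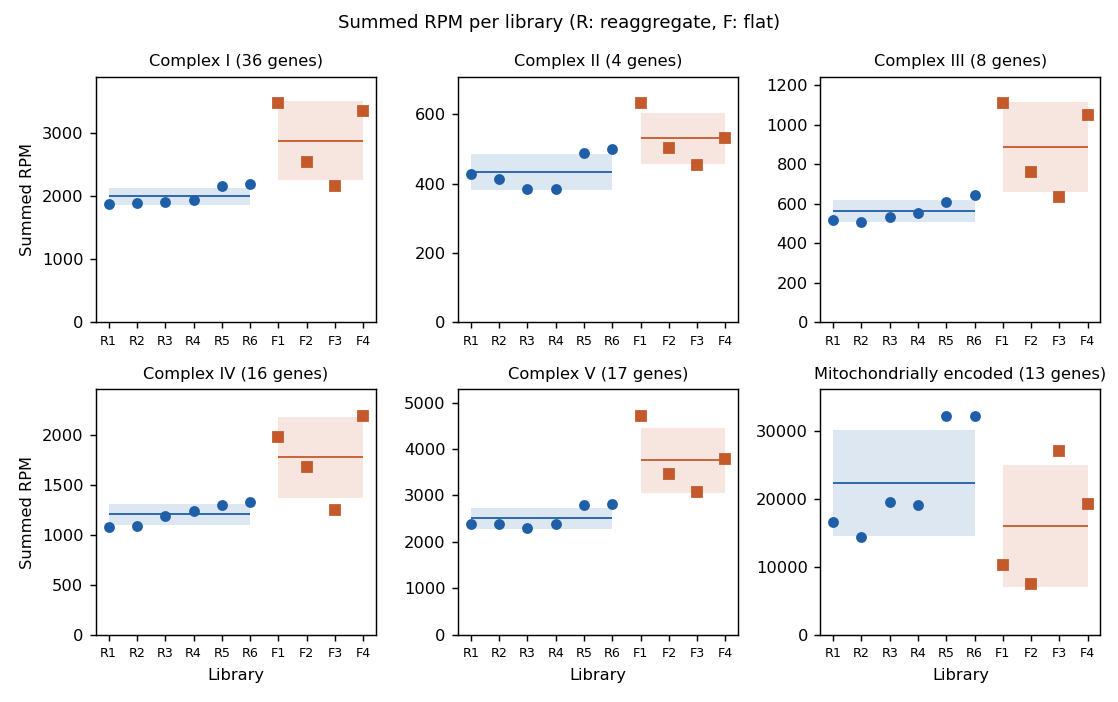
Summed RPM per library of the genes of complexes I to V and of the 13 mitochondrially encoded subunits, in reaggregates (R1 to R6, circles) and flat cultures (F1 to F4, squares); lines are group means and shaded bands 1 SD. All axes start at 0. Only complex V shows every reaggregate below every flat culture, and flat culture 3 is the lowest flat culture for each of the 5 nuclear sums and the highest for the mitochondrial sum.

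Transcript length moved with the same contrast. Members have short transcripts: their median merged exon length (every annotated exon base of a gene counted once, NCBIM37) was 1322 bp, against 3081 bp for all genes tested, and 53 of the 77 measured at most 2000 bp. Across other genes with a mean of at least 10 RPM, the median log2 fold change was -0.60 in 841 genes of at most 1000 bp, of which 48.5% were called lower, and 0.35 in 3279 genes over 5000 bp, of which 8.17% were. In the shortest class the 28 members, with a median of -0.63, lay beside those other genes, and 18 of the 28 (64.3%) were called. Over 1000 and up to 2000 bp the 25 members had a median of -0.64, against -0.25 for 1351 other genes, and 15 of the 25 (60.0%) were called, against 30.2%. The size of the tilt varied between libraries. In flat cultures 1 to 4 the median member deviated from its own mean over the 10 libraries by 0.59, 0.26, -0.04 and 0.60 on the log2 scale, and the median gene of at most 1000 bp by 0.65, 0.21, -0.06 and 0.65. The same deviations lay between -0.31 and -0.11 for members and between -0.41 and -0.08 for short genes in the reaggregates. The tilt was small in reaggregates 5 and 6, where short genes deviated by -0.09 and -0.08 and genes over 5000 bp by -0.05 and -0.02. Flat culture 3 tilted the way of the other reaggregates, with 0.17 for genes over 5000 bp, against -0.28, -0.28 and -0.38 in flat cultures 1, 2 and 4. When the trend with length was removed from each library, a setting chosen after seeing the data, the members' median moved from -0.58 to -0.38 and that of all genes to 0. In that setting 27 members were called lower, all of them among the 43, and Ndufa6 was called higher. Of all genes, 14.8% were called lower, and 2121 of 16462 were called higher.

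**Figure D3:**
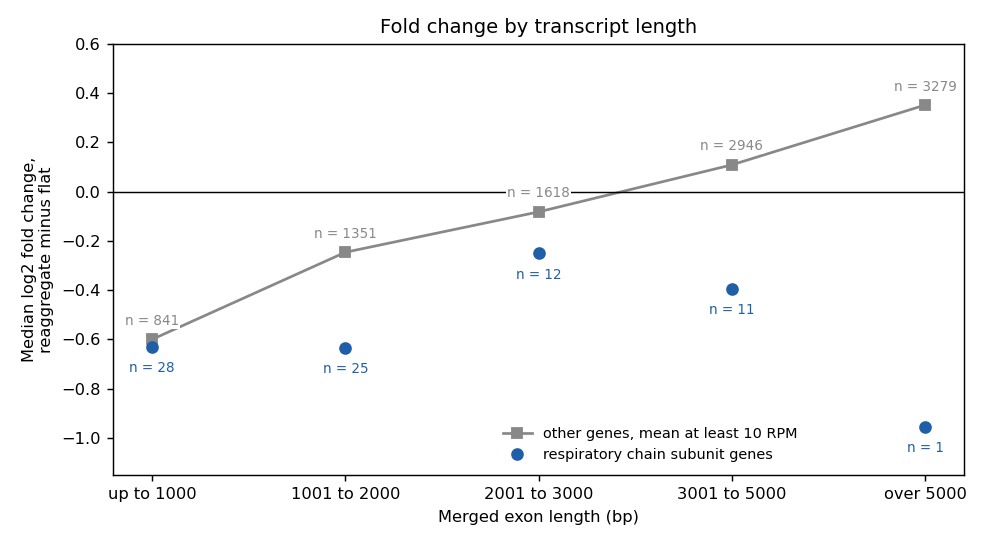
Median log2 fold change (reaggregate minus flat) against merged exon length in 5 classes, for respiratory chain members (circles) and for other genes with a mean of at least 10 RPM (squares, joined by a line); n is the number of genes. Other genes run from -0.60 in the shortest class to 0.35 in the longest, and members lie below them in every class, by least in the shortest; the longest class holds 1 member.

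Markers of cell division and of adipocytes were also read in both groups. All 5 cell division genes were called lower in reaggregates, beside 15.7% of all genes, with a median log2 fold change of -2.28. Their summed RPM was 171, 178, 139, 164, 176 and 215 in reaggregates 1 to 6 and 1177, 386, 1061 and 505 in flat cultures 1 to 4. Top2a was the most abundant of them in all libraries but flat culture 4, where Cdc2a was. Flat cultures 1 and 3 thus had the most division transcripts, whereas flat cultures 1 and 4 had the most respiratory chain transcripts. With consecutive reaggregates averaged 3 of the 5 cell division genes were called lower, beside 2.68% of all genes. Of 5 adipocyte genes, Fabp4 and Pparg were called lower in reaggregates, beside 15.7% of all genes, Fabp4 not with the length trend removed. With consecutive reaggregates averaged limma called 0 of the 5, beside 2.68% of all genes called lower. In that setting 2 of the 5 were lower at an unadjusted p under 0.05, as were 2383 of all 16933 genes. The 5 genes summed to 63.2, 61.0, 83.7, 92.3, 61.1 and 71.3 RPM in the reaggregates and 80.7, 835, 106 and 1011 RPM in the flat cultures, with flat cultures 1 and 3 in or beside the reaggregate range. Fabp4 was the most abundant of them in flat cultures 2 and 4, the libraries of de Bruijn cells, and Pparg in the others, while the defining adipocyte hormone gene Adipoq stayed below 0.8 RPM in all 10 libraries. The part of proliferation and of adipocyte-like cells in the respiratory chain result was not tested.

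Other cell types left few transcripts. The 5 macrophage genes summed to 27.3, 29.2, 10.9, 12.2, 28.4 and 30.0 RPM in reaggregates and 50.2, 16.1, 36.5 and 12.7 RPM in flat cultures, with Lyz2 the most abundant in all libraries but flat culture 2, where Cd68 was. Emr1 was at 0, and Mpeg1 was at 0 in every flat culture and at most 0.681 RPM in reaggregates. The 4 blood genes summed to at most 1.43 RPM in any library, the 5 endothelial genes to at most 1.09 RPM, the 5 muscle genes to at most 1.82 RPM and the 3 testis genes to at most 0.136 RPM. Of the muscle genes Tnnt2 had the highest mean over the libraries. Of the 2 brown fat genes Cidea was at 0 and Dio2 was not called. Tnnt2 passed the filter of 0.5 RPM through flat cultures 2 and 4 only and Mpeg1 through reaggregate 2 only. No test of these genes is read.

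Complex I is the entry point for NADH, and its nuclear subunits form the peripheral arm that carries electrons and much of the membrane arm. Of 36 genes, limma called 18 lower and none higher, beside 15.7% and 13.6% of all genes, with 1 higher at an unadjusted p under 0.05 and a median log2 fold change of -0.53. Without flat culture 4 the lower genes numbered 9, beside 9.63% of all genes. With the length trend removed 11 were lower and 1 was higher, beside 14.8% of all genes lower and 2121 of 16462 genes higher. Limma called 0 with consecutive reaggregates averaged, where 16 were lower at an unadjusted p under 0.05. Grouped after their values were seen, 1 of 7 genes for the core subunits of the arm that carries electrons was called (median -0.17), and 17 of the 29 others (median -0.64); the difference between these groups was not tested. The 7 core genes are also longer, with a median merged exon length of 2142 bp against 1170 bp.

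Ndufb8, for a membrane-arm subunit often used as a marker of assembled complex I, had the lowest value of all 77 members. It lies at chr19:44623062-44629930 (NCBIM37). Its level was 50.9 to 58.6 RPM (median 53.7) in the reaggregates and 182, 99.7, 75.9 and 177 RPM in flat cultures 1 to 4. Every reaggregate was below every flat culture, and flat culture 3 was the nearest to them (log2 fold change -1.20 ± 0.23 (SE), limma adjusted p = 0.00384). Its merged exons measure 3146 bp, and with the length trend removed the value was -1.25. The call held in 24 of 27 alternatives, with a highest adjusted p of 0.0762, and was lost in the 3 alternatives with only 3 reaggregate samples. Ndufa4, placed in complex IV by later work, ranged over 100 to 141 RPM (median 112) in reaggregates and stood at 301, 191, 164 and 308 RPM in the flat cultures. These groups did not overlap either (log2 fold change -1.02 ± 0.19 (SE), limma adjusted p = 0.00368), and with the length trend removed the value was -0.66; this call also held in 24 of 27 alternatives, with a highest adjusted p of 0.0861. Of its tissue-restricted relative Ndufa4l2, which is outside the member rule, flat cultures held 0, 0.835, 0.599 and 1.34 RPM and no reaggregate more than 0.434 RPM.

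Of the core subunits, Ndufs1, the largest of the electron-transferring arm, was at 79.9 to 92.0 RPM (median 84.6) in reaggregates and 120, 86.1, 91.6 and 90.7 RPM in flat cultures. Apart from flat culture 1 the groups overlapped (log2 fold change -0.17 ± 0.13 (SE), limma adjusted p = 0.308). Ndufv1, which binds the flavin that accepts electrons from NADH, had 68.2 to 88.9 RPM (median 72.7) and 99.7, 85.2, 77.6 and 79.7 RPM, with a log2 fold change of -0.16. Reaggregate values reached into the flat range, and the gene was not called (limma adjusted p = 0.383).

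Ndufa6, an accessory subunit, had the highest value of the members. It stood at 77.1 to 99.9 RPM (median 86.4) in reaggregates and 82.3, 49.0, 75.2 and 58.9 RPM in flat cultures, so that flat cultures 2 and 4 were low and flat cultures 1 and 3 within or near the reaggregate range. The value did not pass the test (log2 fold change 0.44 ± 0.16 (SE), limma adjusted p = 0.0593), but it did, as higher in reaggregates, without flat culture 1, without flat culture 3, against flat cultures 2 and 4 alone, and with the length trend removed (log2 fold change 0.79).

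Complex II, which also serves in the citric acid cycle and is wholly nuclear-encoded, had 1 of 4 genes called, beside 15.7% of all genes lower. Sdha, for the flavoprotein that oxidises succinate, was the most abundant of the 4 genes in all libraries but flat cultures 1 and 4, where Sdhd was, at 157 to 195 RPM (median 184) in reaggregates and 145, 168, 190 and 119 RPM in flat cultures. Its groups overlapped and its estimate was above 0 (log2 fold change 0.22 ± 0.15 (SE), limma adjusted p = 0.263). Sdhb, for the iron-sulphur subunit, ranged over 46.6 to 84.6 RPM (median 62.6) and stood at 128, 63.6, 70.1 and 68.1 RPM; flat culture 1 was far above the other libraries, and the gene was not called (log2 fold change -0.35). The membrane anchors Sdhc and Sdhd had log2 fold changes of -0.40 and -0.78. Sdhd was called (log2 fold change -0.78 ± 0.22 (SE), limma adjusted p = 0.0229): it had 75.1 to 101 RPM (median 76.4) in reaggregates and 198, 123, 86.0 and 189 RPM in flat cultures, flat culture 3 lying within the reaggregate range. The call was lost in 9 of 27 alternatives, those without flat culture 1 and without flat culture 4 among them (highest adjusted p 0.175). The genes of 1 enzyme thus took values on both sides of 0, and whether they differ from each other was not tested.

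Complex III had 6 of 8 genes called lower, beside 15.7% of all genes, with a median of -0.60, and all 8 values were below 0. Limma called 0 of the 8 with consecutive reaggregates averaged, where 5 were lower at an unadjusted p under 0.05. With the length trend removed it called 4 lower, beside 14.8% of all genes. Uqcrq, for a small subunit next to cytochrome b, changed most. Its level was 55.4 to 67.0 RPM (median 62.6) in reaggregates and 152, 111, 86.0 and 177 RPM in flat cultures, without overlap (log2 fold change -1.03 ± 0.19 (SE), limma adjusted p = 0.00290). The call held in 24 of 27 alternatives, with a highest adjusted p of 0.0695. Of the large core proteins, which do not carry electrons, Uqcrc1 was called (110 to 130 RPM (median 123) against 188, 200, 148 and 195 RPM, log2 fold change -0.58) and its partner Uqcrc2 was not (80.1 to 116 RPM (median 102) against 201, 114, 102 and 177 RPM, log2 fold change -0.53). In Uqcrc2 flat cultures 2 and 3 lay within the reaggregate range. Uqcrfs1, for the Rieske iron-sulphur protein, was called (log2 fold change -0.48 ± 0.16 (SE), limma adjusted p = 0.0424), at 47.8 to 69.9 RPM (median 56.3) against 106, 68.7, 67.4 and 84.9 RPM, with flat cultures 2 and 3 below reaggregate 6. This call was weak: it was lost in 19 of 27 alternatives, including 7 that left out 1 library and the removal of the length trend (highest adjusted p 0.274). Uqcrh, the hinge protein that holds cytochrome c1, had the highest value of the complex, -0.29, with reaggregates 5 and 6 above reaggregates 1 to 4 and flat cultures 2 and 3 beside the latter. Cytochrome c1 itself, Cyc1, is outside the member rule by its name and was not called (log2 fold change -0.20, 118 to 157 RPM (median 136) against 301, 99.3, 167 and 114 RPM).

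Complex IV, cytochrome c oxidase, had 9 of 12 tested genes called lower, beside 15.7% of all genes, with a median of -0.68. They numbered 5 without flat culture 4 (9.63% of all genes) and 5 with the length trend removed (14.8%), and limma called 0 of the 12 with consecutive reaggregates averaged, where 9 were lower at an unadjusted p under 0.05. Cox4i1, a large regulatory subunit, had the highest RPM of the complex in all libraries but reaggregate 6, where Cox7a2l had, at 185 to 257 RPM (median 221) in reaggregates and 424, 399, 209 and 575 RPM in flat cultures. Flat culture 3 lay among the reaggregates and flat cultures 1, 2 and 4 were far above them (log2 fold change -0.79 ± 0.24 (SE), limma adjusted p = 0.0304). The call was lost in 15 of 27 alternatives, including 7 that left out 1 library and the removal of the length trend (highest adjusted p 0.244). Cox5a and Cox5b, peripheral subunits that face the matrix, were lower in every reaggregate than in every flat culture. Cox5a had 44.5 to 61.2 RPM (median 52.6) against 99.0, 95, 69.5 and 113 RPM (log2 fold change -0.82 ± 0.16 (SE), limma adjusted p = 0.00432), and the call held in 24 of 27 alternatives, with a highest adjusted p of 0.0762. Cox5b had 30.4 to 37.3 RPM (median 32.4) against 61.4, 47.3, 39.6 and 58.9 RPM, with a log2 fold change of -0.63; its call was lost in 7 of 27 alternatives (highest adjusted p 0.141), including the removal of the length trend, where the value was -0.28. Cox6c, a small membrane subunit, had the highest value of the complex, at 142 to 165 RPM (median 151) and 169, 84.0, 147 and 125 RPM: flat culture 2 was low and the others near the reaggregates, and it was not called (log2 fold change 0.26).

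Several subunits of complex IV exist as a common form and a form restricted to heart, skeletal muscle, lung or testis. In OP9 cells the common forms made up nearly all of the transcripts. Cox6a1 ranged over 106 to 122 RPM (median 111) in reaggregates and 192, 200, 132 and 213 RPM in flat cultures, while heart Cox6a2 did not exceed 0.460 RPM. Cox6b1 had 88.1 to 113 RPM (median 104) and 178, 160, 113 and 204 RPM, and testis Cox6b2 was above 0 in flat culture 3 alone, at 0.12 RPM. Cox4i2, known from lung, reached 0.436 RPM, and testis Cox7b2 0.239 RPM. These levels were at or near the limit of 3 reads, so no comparison was made. Cox6a1, Cox6b1, Cox7b and Cox8a were called lower, with log2 fold changes of -0.70, -0.66, -0.74 and -0.56. With the length trend removed Cox6b1 and Cox8a were not called, nor was Cox6b1 without flat culture 4, nor Cox7b without flat culture 1 or without flat culture 4; their highest adjusted p values over 27 alternatives were 0.157, 0.177 and 0.180.

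Of the Cox7a family, Cox7a2, the common form, was called lower (log2 fold change -0.88 ± 0.20 (SE), limma adjusted p = 0.00843), at 51.4 to 63.0 RPM (median 56.5) in reaggregates and 116, 96.1, 66.6 and 154 RPM in flat cultures. Cox7a2l was not called (log2 fold change -0.06 ± 0.20 (SE), limma adjusted p = 0.828); it had 159 to 284 RPM (median 205) and 239, 236, 153 and 263 RPM, with flat culture 3 below every reaggregate and reaggregates 5 and 6 the highest of their group. Cox7a1, the muscle and brown fat form, was at 0.12, 1.31, 0.359 and 2.07 RPM in flat cultures 1 to 4 and at most 0.327 RPM in reaggregates. It exceeded the 3-read limit only in the flat cultures of de Bruijn cells, flat culture 3 lying at that limit, and the culture comparison did not call it (adjusted p = 0.0598 by limma). Since it passed the filter of 0.5 RPM through flat cultures 2 and 4 only, no test of it is read.

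Complex V had 9 of 17 genes called lower, beside 15.7% of all genes, with a median of -0.48. They numbered 5 without flat culture 4 (9.63% of all genes) and 6 with the length trend removed (14.8%); limma called 0 of the 17 with consecutive reaggregates averaged, where 8 were lower at an unadjusted p under 0.05. Atp5b, for the catalytic beta subunit, was the member with the highest RPM: 790 to 1120 RPM (median 915) in reaggregates and 1910, 1510, 1250 and 1450 RPM in flat cultures. The groups did not overlap (log2 fold change -0.69 ± 0.18 (SE), limma adjusted p = 0.0150), and its merged exons measure 4237 bp. The call held in 21 of 27 alternatives, with a highest adjusted p of 0.157. Atp5a1, for the alpha subunit beside it, had 304 to 365 RPM (median 311) and 441, 494, 368 and 403 RPM, also without overlap, and a smaller change (log2 fold change -0.39 ± 0.13 (SE), limma adjusted p = 0.0423). The call was lost in 19 of 27 alternatives, including 8 that left out 1 library and the removal of the length trend (highest adjusted p 0.243). Atp5c1, the rotating central stalk, was not called at 164 to 200 RPM (median 180) against 359, 146, 200 and 211 RPM (log2 fold change -0.26), flat culture 2 being below every reaggregate and flat culture 1 far above. Atp5k, for the small membrane subunit e, had the lowest value of the complex, -0.90, from 9.88 to 14.2 RPM (median 12.8) and 23.3, 26.2, 15.1 and 36.2 RPM. Atp5sl, an assembly factor of complex I by function, had the highest value, 0.31, and was not called.

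The c-ring of the ATP synthase is made from 3 genes that encode the same mature protein with different import signals, and these genes were not alike in their values. Atp5g1 was called lower (log2 fold change -0.83 ± 0.18 (SE), limma adjusted p = 0.00759), with 32.9 to 44.0 RPM (median 37.8) in reaggregates and 75.2, 73.3, 45.6 and 89.4 RPM in flat cultures. Atp5g3 had 217 to 284 RPM (median 240) and 508, 249, 293 and 344 RPM and did not pass (log2 fold change -0.46, limma adjusted p = 0.0849), although it did without flat culture 2. Atp5g2 had 81.9 to 111 RPM (median 97.0) and 169, 52.8, 115 and 68.6 RPM, with flat cultures 2 and 4 below every reaggregate and flat cultures 1 and 3 above them, and a log2 fold change of 0.05 whose sign turned with the scaling and with the libraries used. Reads that fit more than 1 of these genes, or a processed pseudogene, were divided by the authors in proportion to unique reads, so the split between close copies is uncertain.

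Levels between genes were compared per kilobase of merged exons, with no test. In flat culture the highest mean levels were those of Cox4i1 (592 RPM per kb), Ndufa4 (490), Cox8a (401), Atp5b (361) and Cox6b1 (324 RPM per kb). In reaggregates the same genes had 324, 233, 272, 222 and 202 RPM per kb. By complex, the median level in flat culture was 49.2 RPM per kb for complex I, 42.2 for complex II, 87.1 for complex III, 140 for complex IV and 77.1 for complex V. The reaggregate medians were 35.1, 39.8, 57.8, 75.4 and 53.8 RPM per kb. Merged exons include those of rare long transcripts, which can lower such a level. Ndufb2, with 5628 bp, had 9.36 RPM per kb in flat culture, the lowest of complex I. The part of such transcripts in this value was not tested. The tested members lie on 19 chromosomes, with at most 6 on any of them.

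The 13 subunits encoded in the mitochondrial genome showed no called change. By limma none passed in either direction, and none had an unadjusted limma p under 0.05; their median log2 fold change was 0.66 and 12 of the 13 values were above 0. Together they gave 16540, 14370, 19474, 19114, 32177 and 32113 RPM in reaggregates 1 to 6, and in flat cultures 1 to 4 they gave 10231, 7382, 27044 and 19192 RPM. Flat cultures 1 and 2 were below every reaggregate, flat culture 4 was among them and flat culture 3 was above reaggregates 1 to 4. The most abundant, mt-Co1 for the catalytic subunit of complex IV, had 4640 to 9380 RPM (median 5890) and 2990, 1870, 8680 and 5420 RPM. In reaggregates 1 to 6 there were 2.63, 2.28, 3.08, 2.94, 4.38 and 4.30 mitochondrial reads for each read of a nuclear member, and in flat cultures 1 to 4 0.860, 0.827, 3.57 and 1.76. By this ratio flat culture 3 lay among the reaggregates and flat cultures 1, 2 and 4 below them. The part of cell source in this ratio was not tested. The value below 0 was that of mt-Nd3 (-0.41).

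Genes whose products build the complexes were also followed. Of 39 assembly factors, 12 were called lower and none higher, beside 15.7% and 13.6% of all genes, with 1 higher at an unadjusted limma p under 0.05 and a median of -0.28. With consecutive reaggregates averaged limma called 0 of them, and 9 were lower at an unadjusted p under 0.05. With the length trend removed 8 were lower and 1 was higher, beside 14.8% of all genes lower and 2121 of 16462 genes higher. The 4 largest called changes were those of 2900010M23Rik (RefSeq Uqcc2, which assists cytochrome b synthesis; -1.02), Cox18 (membrane insertion of a complex IV subunit; -0.89), Tmem70 (ATP synthase assembly; -0.87) and Cox17 (a copper chaperone; -0.85). Sco2 and Cox16 were not analysed here. Among 15 genes of electron carriers and coenzyme Q synthesis, 3 were lower and 3 higher, which is near the shares of all genes (15.7% and 13.6%). With consecutive reaggregates averaged 1 was lower and none higher by limma, with 3 lower and 3 higher at an unadjusted p under 0.05. Cycs, for somatic cytochrome c, had 12.6 to 16.7 RPM (median 14.2) in reaggregates and 39.1, 55.2, 24.6 and 62.7 RPM in flat cultures, with no overlap (log2 fold change -1.55 ± 0.24 (SE), limma adjusted p = 0.00115), and it was the 1 gene of this list still called with consecutive reaggregates averaged. Coq3, a methyltransferase of coenzyme Q synthesis, was lower (-1.28), and the kinase-like Adck4 and Cabc1 of the same pathway were higher (1.28 and 1.18).

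Genes that supply the complexes with proteins had a median near that of the members. Of 76 genes with names of mitochondrial ribosomal proteins, Mrpl48-ps, a pseudogene by its name, among them, 37 were called lower (Mrpl48-ps included) and none higher, beside 15.7% and 13.6% of all genes, with 1 higher at an unadjusted p under 0.05 and a median of -0.58; by size the first were Mrpl53 (-1.91), Mrpl51 (-1.30), Mrpl54 (-1.13) and Mrpl46 (-0.96). Of 20 import genes, 16 were lower and none higher by limma, with 1 higher at an unadjusted p under 0.05 and a median of -0.70. They included Timm8a1 (-1.41), a chaperone of the intermembrane space, Timm17a (-1.23), a part of the inner membrane channel, and Tomm5 and Tomm20 of the outer membrane complex (-1.13 and -1.05). With the length trend removed 30 of the 76 and 11 of 19 were called lower, beside 14.8% of all genes. In that setting 1 import gene was called higher, where 2121 of 16462 genes were. Of 16 citric acid cycle genes, which have longer transcripts (median 3392 bp), 5 were lower and none higher, also at an unadjusted p under 0.05, with a median of -0.21. With the length trend removed 7 of the 16 were lower. Idh3a, a subunit of isocitrate dehydrogenase, changed most (-1.08), before Suclg1 (-0.63), Mdh2 (-0.60) and Fh1 (-0.52), which lost its call in 18 of 27 alternatives. Without flat culture 4 the lower genes numbered 5 of the assembly factors, 17 of the mitochondrial ribosome and 8 of the import genes, beside 9.63% of all genes, to which the 5 of 39 assembly factors were near. With consecutive reaggregates averaged limma called 2 of the 76 mitochondrial ribosome genes, 2 of the 20 import genes and 1 of the 16 citric acid cycle genes lower, beside 2.68% of all genes, so that the ribosome count was no more than the background.

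Of 20 tested regulators of mitochondrial gene expression, 4 were higher and 2 lower, beside 13.6% and 15.7% of all genes. With consecutive reaggregates averaged limma called 0, and 2 in each direction had an unadjusted p under 0.05. With the length trend removed 2 were higher and 2 lower, beside 2121 of 16462 genes higher and 14.8% lower. The median log2 fold change of the list was 0.14, and -0.09 with the length trend removed. Ppargc1a, for the coactivator PGC-1alpha that drives mitochondrial biogenesis in muscle and brown fat, was higher in reaggregates, at 1.52 to 4.98 RPM (median 2.83) against 0.921, 0, 0.719 and 0.121 RPM. These levels are low, and every reaggregate was above every flat culture (log2 fold change 1.93 ± 0.39 (SE), limma adjusted p = 0.00504). Ppargc1b, its relative, was also called higher (1.52), at 0.531 to 3.38 RPM (median 2.05) against 0.691, 0, 0.599 and 0 RPM, with reaggregates 5 and 6 within the flat range. The DNA-binding partners showed smaller values: -0.22 for Esrra, 0.06 for Nrf1 (both not called) and 0.39 for Gabpa (limma adjusted p = 0.0487). Tfam, which packages and transcribes mitochondrial DNA, was lower (-0.58), at 25.9 to 36.3 RPM (median 30.6) against 55.1, 39.2, 37.7 and 54.1 RPM with no overlap, as was the rRNA methyltransferase Tfb1m (-0.90); Mterfd2, of the mitochondrial transcription termination family, was higher (0.78). Of these, Ppargc1a lost its call in 4 of 26 alternatives, among them the averaging of consecutive reaggregates, and Tfb1m in 6 of 27. Ppargc1b lost its call in 13 of 26 alternatives, Gabpa in 20, Tfam in 11 and Mterfd2 in 16 of 27, some with 1 library left out, and the value of Nrf1 changed sign in 6.

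Of 15 tested genes for uncoupling, mitochondrial dynamics and antioxidant enzymes, 3 were lower, beside 15.7% of all genes. The peroxiredoxins Prdx5 (-1.42) and Prdx3 (-0.88), which remove hydrogen peroxide, and Immt (-0.63), which shapes the cristae, were lower. With consecutive reaggregates averaged Prdx5 alone was called. Ucp2, a carrier of the inner membrane, was at 0.109 to 3.80 RPM (median 1.06) in reaggregates and 0.230, 0, 0 and 0 RPM in flat cultures; it passed the filter through the reaggregates only, and no test of it is read. Ucp3 stayed below 0.5 RPM, and Ucp1 was not analysed here.

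Addition of IL-3 left no called change in the chain. Among the 3 reaggregates with and the 3 without IL-3, limma called 0 of the 77 members and 0% of all genes. At an unadjusted p under 0.05 there were 0 members, beside 68 of all 16933 genes. This fit takes no account of the likeness of consecutive reaggregates. With consecutive reaggregates as a block, limma again called none, and 2 members had an unadjusted p under 0.05, as had 564 of all 16933 genes. The log2 difference of the members (with minus without) ran from -0.24 to 0.20, with a median of 0.01, which was also that of all genes.

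Cell source within flat culture gave no called member either, although 5.70% of all genes were called. Limma found 3 members with an unadjusted p under 0.05, as had 3899 of all 16933 genes, between flat cultures 2 and 4 (de Bruijn cells) and flat cultures 1 and 3. The members' median log2 difference was 0.15, against -0.17 for all genes. Atp5g2 was lowest with -1.21 (adjusted p = 0.0984). The highest, Cox7a1 with 1.56, had passed the filter only through the de Bruijn cultures, which fixed its direction. When all 10 libraries shared 1 estimate of the spread, limma called Cox7a1, Atp5g2, Ndufc1, an accessory subunit of complex I (0.94), and Cox6c (-0.62). The share of all genes called in that setting is not given here. In Atp5g2 and Cox6c, the de Bruijn cultures gave the lowest flat levels of genes whose culture comparison had an estimate above 0. Since the source of the reaggregates is not labelled, culture and cell source cannot be fully told apart.

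Promoters of the members were also examined. RefSeq windows of 300 bases (GRCm38.p6, 250 before to 50 after the start) were matched for 68 of the 81 members and searched on both strands for 4 motifs known from such genes. NRF1 letters (GCGCATGC) were in 14.7% of member windows and 3.05% of all 27025 gene windows that RefSeq gave for the mouse. The ETS letters CCGGAAG, the core bound by GABP, were in 23.5% against 9.93%, the YY1 letters AAGATGGCG in 11.8% against 1.64%, and CCAAT in 45.6% against 41.1%. Among members called lower the shares were 15.8%, 28.9%, 10.5% and 36.8% of 38, and among members tested and not called 14.3%, 17.9%, 14.3% and 53.6% of 28; the difference was not tested. A match is a description of letters and not of binding. The first 280 bases of 7 windows are shown, all read 5′ to 3′ on the gene's strand with motif letters in capitals: the members with the lowest and the highest value, Ndufb8 (chr19:44555413-44555692, minus strand) and Ndufa6 (chr15:82354262-82354541, minus strand), and the 5 members whose window held both NRF1 and ETS letters, Sdhb (chr4:140961021-140961300, plus strand), Uqcr, RefSeq Uqcr11 (chr10:80406792-80407071, minus strand), Cox6a1 (chr5:115348929-115349208, minus strand), Atp5k (chr5:108434370-108434649, minus strand) and Atp5l (chr9:44920713-44920992, minus strand). Ndufb8 held none of the 4 motifs, and in Cox6a1 and Atp5k the NRF1 letters overlapped on both strands. Of the 5 with both motifs, Sdhb was not called and the others were called lower.
Ndufb8: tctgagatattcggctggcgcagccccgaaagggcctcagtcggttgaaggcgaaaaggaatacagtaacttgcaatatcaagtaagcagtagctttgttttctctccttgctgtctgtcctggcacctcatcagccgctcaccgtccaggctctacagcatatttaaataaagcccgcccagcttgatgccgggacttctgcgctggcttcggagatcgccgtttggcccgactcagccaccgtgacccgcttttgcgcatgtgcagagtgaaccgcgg
Ndufa6: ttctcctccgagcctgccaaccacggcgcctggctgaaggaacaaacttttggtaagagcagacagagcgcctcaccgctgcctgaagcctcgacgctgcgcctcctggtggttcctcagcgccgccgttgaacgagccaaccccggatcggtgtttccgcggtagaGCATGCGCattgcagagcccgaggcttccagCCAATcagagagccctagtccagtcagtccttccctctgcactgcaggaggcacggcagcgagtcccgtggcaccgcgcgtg
Sdhb: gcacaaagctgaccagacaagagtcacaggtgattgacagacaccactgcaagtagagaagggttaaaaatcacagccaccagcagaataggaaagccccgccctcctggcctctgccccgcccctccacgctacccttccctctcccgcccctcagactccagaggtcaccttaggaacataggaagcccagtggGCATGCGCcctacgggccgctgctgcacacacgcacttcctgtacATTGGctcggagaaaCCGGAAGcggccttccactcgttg
Uqcr: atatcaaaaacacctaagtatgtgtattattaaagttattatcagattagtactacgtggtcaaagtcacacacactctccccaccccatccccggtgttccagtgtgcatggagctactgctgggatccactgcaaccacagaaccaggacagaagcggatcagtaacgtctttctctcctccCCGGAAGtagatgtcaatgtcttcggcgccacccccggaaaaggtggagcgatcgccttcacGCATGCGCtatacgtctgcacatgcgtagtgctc
Cox6a1: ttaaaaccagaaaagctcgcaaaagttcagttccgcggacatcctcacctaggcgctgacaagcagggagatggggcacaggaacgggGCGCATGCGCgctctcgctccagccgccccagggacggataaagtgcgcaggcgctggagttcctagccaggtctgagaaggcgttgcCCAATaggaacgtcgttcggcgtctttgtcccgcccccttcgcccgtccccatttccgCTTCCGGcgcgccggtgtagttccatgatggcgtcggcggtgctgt
Atp5k: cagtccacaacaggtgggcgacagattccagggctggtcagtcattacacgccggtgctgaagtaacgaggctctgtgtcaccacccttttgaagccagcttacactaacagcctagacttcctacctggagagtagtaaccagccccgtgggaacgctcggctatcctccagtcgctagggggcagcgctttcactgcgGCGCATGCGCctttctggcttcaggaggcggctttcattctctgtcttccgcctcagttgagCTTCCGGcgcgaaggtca
Atp5l: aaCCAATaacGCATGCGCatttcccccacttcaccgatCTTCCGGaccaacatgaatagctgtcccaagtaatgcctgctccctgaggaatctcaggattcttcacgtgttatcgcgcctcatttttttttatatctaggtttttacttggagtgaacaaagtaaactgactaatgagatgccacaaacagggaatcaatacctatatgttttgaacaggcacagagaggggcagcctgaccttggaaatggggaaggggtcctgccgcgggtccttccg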

How the data were processed

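RNA of 6 reaggregates and 4 flat cultures of OP9 cells was sequenced, and samples were grouped by their labels. The authors aligned reads to NCBIM37 (mm9) with TopHat 1.2.0, according to the submitters' processing notes, counted them per Ensembl gene in GeneProf, dividing reads with several places among genes in proportion to unique reads, and deposited them as RPM. Reads fitting close gene copies or processed pseudogenes are therefore uncertain. The table also holds the authors' own log2 fold changes and adjusted p-values between reaggregates and flat cultures, made with DESeq (2011-03-15), which were not used here.

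Whole reads were not recovered, and no count test was run. Of values per library, 22.8% to 34.8% were whole multiples of 1 read, within 0.02 of a read. The deposited values are rounded, which lowers this share, so it cannot show whether reads were whole. Instead, log2(RPM + 0.5) of genes above 0.5 RPM in at least 1 library was tested with limma 3.58.1 in R 4.3.3. The fit had a mean-variance trend and Benjamini-Hochberg adjustment over all 16933 genes, and calls have an adjusted p of at most 0.05. The same code was tested on simulated data with independent noise in each library, so that test does not cover near-duplicate reaggregates. Log2(RPM + 0.5) understates the change of low genes. Depth was taken from the value of 1 read, which was 0.106 to 0.136 RPM per library, so that 0 reads allow up to 0.318 to 0.408 RPM. Comparisons were of reaggregate with flat culture, of reaggregates with and without IL-3, and of cell sources within flat culture. Alternatives were the pseudocount (0.1 or 1 RPM), the filter, quantile and median-ratio scaling, no trend, libraries left out singly or in sets, consecutive reaggregates averaged, a replicate block and, chosen after seeing the data, removal of a lowess trend on length (span 0.3). Exon lengths came from an NCBIM37 annotation (GENCODE M1), which placed 95.6% of the genes; promoter searches and figures used Python 3.11.15 and matplotlib 3.10.9.

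Named members were all called with a 2-fold change, the lowest and highest value of each complex at a mean of at least 5 RPM in the higher group, core or catalytic subunits (1 of them is not reported here), and isoform families; of each wider list, the 4 called genes with the largest change, and Ppargc1a, Ppargc1b, Esrra, Nrf1, Gabpa and Tfam whatever their values. Ndufc1, Ndufb2, mt-Nd3 and other genes outside this rule were chosen after their values were seen. Members and lists were chosen with earlier results of these data known.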

Additional observations from a re-analysis of the deposited data

Results flagged for a closer look

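Chance flags about 1 in 20 groups of independent libraries, which gives 7.20 of the 144 groups of 4 or 6 libraries examined. Consecutive reaggregates were close to duplicates, so this number need not hold for their groups. In all, 4 groups held a library far from the others. Of these, 3 concerned members and 1 a gene of the wider lists. Reaggregate 1 had 9.88 RPM of Atp5k, with the next lowest reaggregate at 12.6 RPM. Flat culture 1 had 120 RPM of Ndufs1, with the next highest flat culture at 91.6 RPM, and 128 RPM of Sdhb, with the next at 70.1 RPM. Flat culture 1 also had 0.230 RPM of Ucp2 where the other flat cultures were at 0, which is below the value of 3 reads. Ndufs1 and Sdhb were not called between reaggregates and flat cultures.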

How the results depend on the processing

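The median log2 fold change of the members was below 0 in each of the 27 alternatives for the culture comparison, but their calls depended on which libraries, and how many, were used. The shares in parentheses are those of all genes called lower in the same setting, which moved too. Beside the 43 members called lower in the main setting (15.7%), limma called 0 with consecutive reaggregates averaged (2.68%), 0 with only the reaggregates given IL-3 (2.20%) and 0 with only those without it (508 of 16933 genes), where 39, 36 and 39 members were lower at an unadjusted p under 0.05. It called 15 omitting reaggregates 1 and 2 (6.70%), 21 omitting reaggregates 3 and 4 (8.08%) and 42 omitting reaggregates 5 and 6 (13.7%), and 15 with only flat cultures 1 and 3 (11.2%) but 51 with only flat cultures 2 and 4 (21.6%). Leaving out 1 library gave 23 without flat culture 4 (9.63%) to 54 without flat culture 3 (20.2%), and 0 to 1 member higher. Of all 16933 genes, 1268 (without flat culture 4) to 3743 (without flat culture 3) were then higher. With only flat cultures 2 and 4, 3 members were higher (Ndufa6, Cox6c and Atp5g2), where 4290 of all 16933 genes were. With the length trend removed 27 members were lower (14.8%), 1 was higher, where 2121 of 16462 genes were, and the members' median was -0.38. Between cell sources 1 member was called after quantile normalization, 1 after median-ratio scaling and 4 with all 10 libraries in 3 groups. Each time Cox7a1 was among them, which passed the filter only through the de Bruijn cultures. The shares of all genes called in these source settings are not given here, so nothing is concluded about the members from these counts.

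The replicate block, on the numbers that reaggregates 1 to 4 share with flat cultures 1 to 4, gave 28 members lower (10.4%); it uses 8 libraries. The deviations of same-numbered libraries correlated at -0.04, -0.21, 0.07 and 0.16, so the numbers do not pair the samples.

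In the main setting the values that changed sign under an alternative were not called. The log2 fold change of Cox6c was -0.054 with only flat cultures 1 and 3, and the log2 fold change of Atp5c1 was 0.044 with only flat cultures 2 and 4. The log2 fold change of Cox7a2l was -0.234 (without flat culture 3) to 0.026 (without flat culture 4) over single libraries left out, above 0 also without reaggregate 2, 0.10 omitting reaggregates 1 and 2, 0.13 with only flat cultures 1 and 3 and 0.15 with the length trend removed. The log2 fold change of Atp5g2 was 0.00 after quantile normalization, -0.21 (without flat culture 2) to 0.347 (without flat culture 1) over single libraries left out, below 0 also without flat culture 4, -0.027 omitting reaggregates 5 and 6, -0.55 with only flat cultures 1 and 3 and -0.027 with the replicate block. The log2 fold change of Nrf1 was -0.006 after quantile normalization, -0.035 (without flat culture 4) to 0.189 (without flat culture 3) over single libraries left out, below 0 also without flat culture 2, -0.047 omitting reaggregates 1 and 2, -0.20 with only flat cultures 1 and 3 and -0.34 with the length trend removed. The cause of these changes was not tested. Of all values recomputed under an alternative, 1781 kept their direction and side of the threshold, 419 lost a call or fell in number by over 1.5 times, 33 did the opposite, 19 changed sign and 1, the median of the members with the length trend removed, moved by more than the spread between replicates. Depth limits statements on genes under 0.408 RPM.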
